A study of Mus musculus with 10 samples.

Results

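Of the 13932 genes in the count table, 35 genes of the cell division cycle are described here, all found by symbol in the table. They are 15 genes of DNA replication and 20 genes of mitosis, and they were listed by name, not by their values. RNA was sequenced from live cells of the mouse ileum, the last stretch of the small bowel, that were sorted as negative for the leukocyte protein CD45 and positive for the epithelial protein EpCAM. There were 5 libraries of each genotype, 3 from males and 2 from females. All 10 libraries carried H2-Ab1 alleles flanked by loxP sites (H2-Ab1 fl/fl), and H2-Ab1 encodes the beta chain of an MHC class II molecule. WT libraries were Villin:Cre- and dIEC libraries Villin:Cre+ by their sample labels, so that Cre recombinase was driven by the promoter of villin, a gene of the brush border of intestinal epithelial cells. The text of the series gives Cre- for both genotypes, and the sample labels were followed. Every dIEC library carried Cre and no WT library did, so the deletion and Cre itself cannot be told apart. Age was not among the labels used here, and the labels do not say whether each library came from 1 mouse, so p-values measure the spread between these libraries.

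Cells of the intestinal epithelium divide in the crypts and stop dividing as they move onto the villus. Before DNA is copied, Cdc6 and Cdt1 load the MCM ring, the helicase of replication, onto origins. In S phase Cdc45 and the GINS complex switch the ring on, Pcna clamps the polymerase to DNA, and ribonucleotide reductase, thymidylate synthase and thymidine kinase supply deoxynucleotides. Mitosis follows under Cdk1 with its cyclins, the Polo-like and Aurora kinases and the spindle checkpoint, and the anaphase-promoting complex ends it. In bulk RNA, fewer dividing cells and less of a transcript per dividing cell cannot be told apart.

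The libraries held 9174101 to 13484363 counts, and all 35 genes were among the 12477 tested. Single counts of these genes ran from 9 to 5589 per library. H2-Ab1 was at 208 ± 117 CPM (counts scaled to library size) in WT and 2.14 ± 0.96 CPM in dIEC (SD, n = 5 each), with a log2 fold change of -6.39 (SE 0.51, edgeR adjusted p = 0.000904), which checks the labels. Mean log2 CPM of 7 epithelial markers stayed between 9.97 and 10.40 in every library. Of 15 leukocyte markers 3 were listed, with 98 to 346 counts in sum. Ptprc, the gene of CD45, had 1 to 13 counts per library, Cd68 23 to 64 and the integrin gene Itgam 64 to 292. Itgam had its most counts in dIEC female 9, the library with the highest total. Scaled to library size, its highest values were 17.9 CPM in dIEC and 17.2 CPM in WT. The part of these transcripts in the results was not tested. Of 10 stromal and endothelial markers 4 were listed, with 83 to 197 counts in sum.

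The 35 genes varied widely between libraries and nearly always together, and the order of the libraries did not follow genotype. Of the 35, 33 were highest in dIEC female 9 and 32 were lowest in dIEC female 7. The mean log2 CPM of all 35 was 2.77 in dIEC female 7, 3.08 in WT female 10, 3.46 in WT male 4, 4.11 in dIEC male 5 and 4.24 in WT female 8. It was 4.34 in dIEC male 1, 4.54 in dIEC male 3, 4.84 in WT male 2, 4.88 in WT male 6 and 5.30 in dIEC female 9. Both ends of the order are thus dIEC females, and the WT libraries lie below, among and above the dIEC males. The highest library exceeded the lowest by a median of 6.39-fold over the 35 genes, from 2.11-fold for Cdc6 to 10.4-fold for Gins2.

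**Figure D1:**
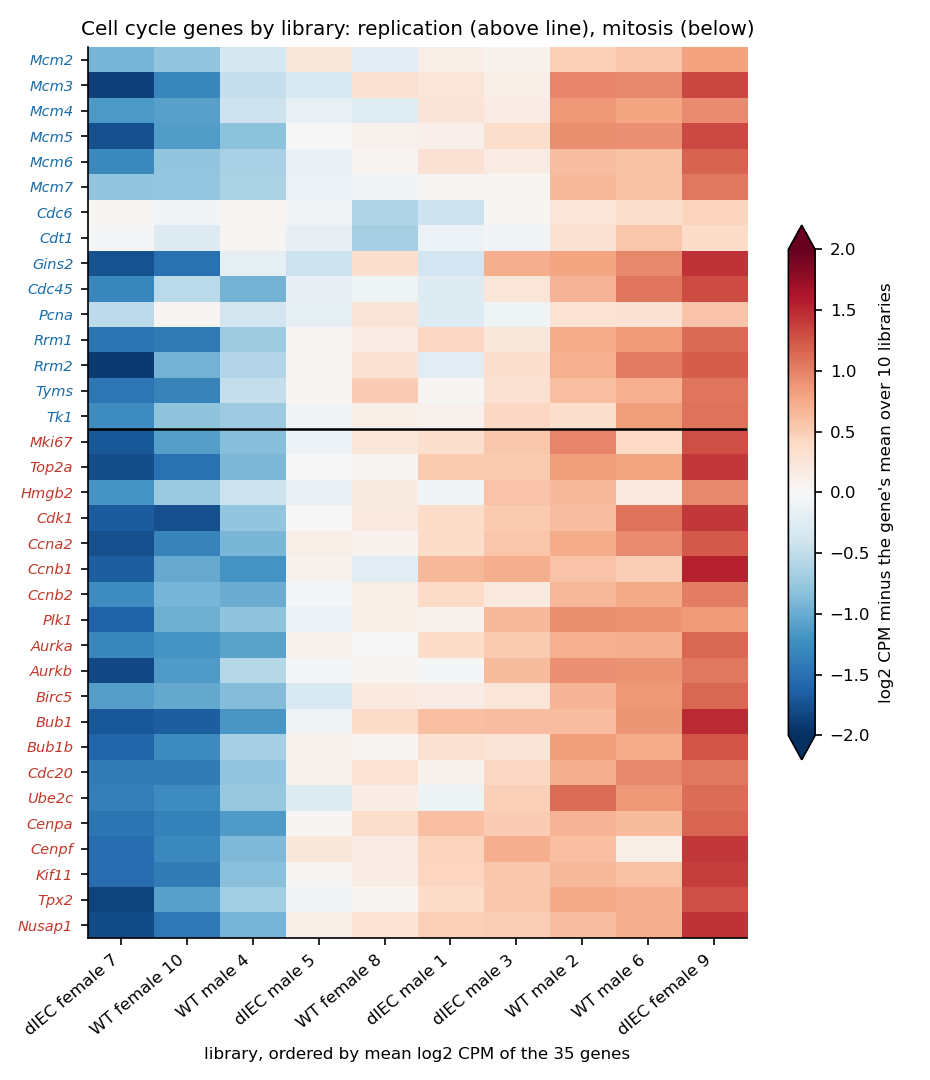
Levels of the 35 cell cycle genes (rows) in the 10 libraries (columns, ordered by the mean of all 35), as log2 CPM minus each gene's own mean, with replication genes above the line and mitosis genes below. The colours change together from dIEC female 7 (mean 2.77) to dIEC female 9 (mean 5.30), with smaller changes in the rows of Cdc6, Cdt1 and Pcna.

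The MCM ring and the factors that load and activate it act first in the cycle and are given first. Mcm6 (chromosome 1, 128331590 to 128359664; coordinates are GRCm38, also called mm10), a ring subunit and the replication gene with the second highest level per kilobase of exon (13.7 CPM per kb), was at 87.7, 36.2 and 85.8 CPM in WT males 2, 4 and 6, 58.4 and 32.9 CPM in WT females 8 and 10, 70.1, 63.7 and 52.1 CPM in dIEC males 1, 3 and 5, and 23.2 and 129 CPM in dIEC females 7 and 9. Gins2, a subunit of the GINS complex and the lowest of the 35 genes per kilobase (1.17 CPM per kb), was at 6.82, 3.37 and 7.67 CPM in WT males 2, 4 and 6, 4.84 and 1.26 CPM in WT females 8 and 10, 2.93, 6.47 and 2.81 CPM in dIEC males 1, 3 and 5, and 1.03 and 10.8 CPM in dIEC females 7 and 9. For both genes the highest and the lowest library were dIEC, and the 5 WT libraries lay inside the dIEC range. The other ring subunits Mcm2, Mcm3, Mcm4, Mcm5 and Mcm7 had the same ends, with a highest library 3.33-fold above the lowest for Mcm2 and 9.48-fold for Mcm3. Cdc45, the partner of GINS, ran from 2.41 to 15.5 CPM.

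Among the genes of nucleotide supply and the clamp, Rrm2, the small subunit of ribonucleotide reductase, was at 13.6, 5.41 and 17.1 CPM in WT males 2, 4 and 6, 10.2 and 4.21 CPM in WT females 8 and 10, 7.11, 10.5 and 8.61 CPM in dIEC males 1, 3 and 5, and 2.07 and 19.3 CPM in dIEC females 7 and 9. Its large subunit Rrm1 spanned 6.06-fold, thymidylate synthase Tyms 5.93-fold and thymidine kinase Tk1 5.21-fold, against 9.34-fold for Rrm2. Pcna, the sliding clamp, had the highest level of the 35 genes per kilobase (24.9 CPM per kb) and was at 70.3, 45.00 and 70.8 CPM in WT males 2, 4 and 6, 69.8 and 59.9 CPM in WT females 8 and 10, 48.7, 54.9 and 51.3 CPM in dIEC males 1, 3 and 5, and 40.6 and 86.1 CPM in dIEC females 7 and 9. Its libraries spanned only 2.12-fold.

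Of the mitosis genes, the chromosome genes Top2a and Mki67 had the highest levels per kilobase (17.5 and 15.5 CPM per kb). Top2a (chromosome 11, 98992943 to 99024189), the topoisomerase that untangles sister chromatids, was at 230, 68.7 and 221 CPM in WT males 2, 4 and 6, 134 and 45.5 CPM in WT females 8 and 10, 185, 184 and 129 CPM in dIEC males 1, 3 and 5, and 37.2 and 343 CPM in dIEC females 7 and 9. Both ends of its range were dIEC females, with all 5 WT libraries in between. Hmgb2, a DNA-bending chromatin protein, ran from 2.07 to 9.75 CPM. Cdk1, the kinase that starts mitosis, was at 27.3, 10.2 and 37.9 CPM in WT males 2, 4 and 6, 20.3 and 5.11 CPM in WT females 8 and 10, 23.02, 25.7 and 17.9 CPM in dIEC males 1, 3 and 5, and 5.52 and 47.4 CPM in dIEC females 7 and 9. Ccna2, its cyclin A partner, was at 72.1, 22.6 and 83.01 CPM in WT males 2, 4 and 6, 44.9 and 16.9 CPM in WT females 8 and 10, 55.3, 63.4 and 46.4 CPM in dIEC males 1, 3 and 5, and 12.5 and 101 CPM in dIEC females 7 and 9. For Ccna2 too the WT libraries lay inside the dIEC range, and for Cdk1 WT female 10 lay below dIEC female 7. Cyclin B genes Ccnb1 and Ccnb2 spanned 9.99-fold and 4.88-fold.

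The kinases that build the spindle and part the chromosomes were at 3.19 to 4.03 CPM per kb. Aurkb, which corrects the attachment of chromosomes to the spindle, was at 19.03, 6.74 and 18.9 CPM in WT males 2, 4 and 6, 10.4 and 4.48 CPM in WT females 8 and 10, 9.83, 15.6 and 9.88 CPM in dIEC males 1, 3 and 5, and 2.76 and 21.1 CPM in dIEC females 7 and 9. Birc5, the survivin subunit of the same complex, was at 18.3, 6.14 and 20.9 CPM in WT males 2, 4 and 6, 13.1 and 5.47 CPM in WT females 8 and 10, 12.7, 13.5 and 9.20 CPM in dIEC males 1, 3 and 5, and 5.17 and 25.4 CPM in dIEC females 7 and 9. For both, dIEC female 7 was lowest, dIEC female 9 highest and every WT library in between. Plk1 and Aurka, which act on centrosomes and mitotic entry, ran from 1.84 to 11.6 CPM and from 3.33 to 19.02 CPM. Plk1 was the mitosis gene whose highest library was WT, by a narrow margin (11.6 CPM in WT male 2 and 11.04 CPM in dIEC female 9).

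The spindle checkpoint holds anaphase back until chromosomes are attached, and Cdc20 and Ube2c then act with the anaphase-promoting complex to destroy cyclin B. Bub1, a checkpoint kinase, had the largest spread of the 35 genes (SD of log2 CPM 1.11) and was at 14.4, 4.09 and 17.4 CPM in WT males 2, 4 and 6, 12.1 and 2.87 CPM in WT females 8 and 10, 14.3, 14.4 and 8.86 CPM in dIEC males 1, 3 and 5, and 2.76 and 26.5 CPM in dIEC females 7 and 9. Cdc20 was at 33.5, 11.7 and 39.7 CPM in WT males 2, 4 and 6, 24.4 and 7.53 CPM in WT females 8 and 10, 21.3, 26.9 and 21.6 CPM in dIEC males 1, 3 and 5, and 7.47 and 42.4 CPM in dIEC females 7 and 9. In both genes dIEC female 7 and WT female 10 were the 2 lowest libraries. Bub1b and Ube2c spanned 7.45-fold and 5.73-fold. Of the centromere and spindle genes, the spindle motor Kif11 was at 57.3, 20.3 and 54.8 CPM in WT males 2, 4 and 6, 40.3 and 13.6 CPM in WT females 8 and 10, 49.3, 52.7 and 37.2 CPM in dIEC males 1, 3 and 5, and 12.5 and 95.4 CPM in dIEC females 7 and 9. Nusap1, a microtubule-binding spindle protein, was at 28.2, 9.50 and 30.3 CPM in WT males 2, 4 and 6, 22.01 and 6.63 CPM in WT females 8 and 10, 25.4, 25.6 and 20.02 CPM in dIEC males 1, 3 and 5, and 5.17 and 50.3 CPM in dIEC females 7 and 9. In both the WT libraries lay inside the dIEC range. Tpx2, which recruits Aurora A to the spindle, and the centromeric histone Cenpa spanned 9.10-fold and 6.39-fold.

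All 20 mitosis genes spread more than most genes did. Their SD of log2 CPM over the 10 libraries ran from 0.66 to 1.11 (median 0.95), against a median of 0.35 over all genes tested, and 13.5% of all genes had an SD at or above the lowest of the 20. The replication genes had a wider range of spread, from 0.32 to 1.05 (median 0.75), with 3 of them at the low end. Cdc6, Cdt1 and Pcna had SDs of 0.32, 0.35 and 0.34, close to the median of all genes, and the other 32 genes stood at percentiles 79.9 to 98.7 of all genes. The correlation of each gene's log2 CPM with the mean of the other 34, over 10 libraries that share depth scaling and prior count, was 0.936 or more for those 32. It was 0.335 for Cdc6, 0.472 for Cdt1 and 0.756 for Pcna. Without dIEC 7 and dIEC 9 the 32 genes were still at 0.869 or more. These 3 genes were singled out after their values were seen.

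**Figure D2:**
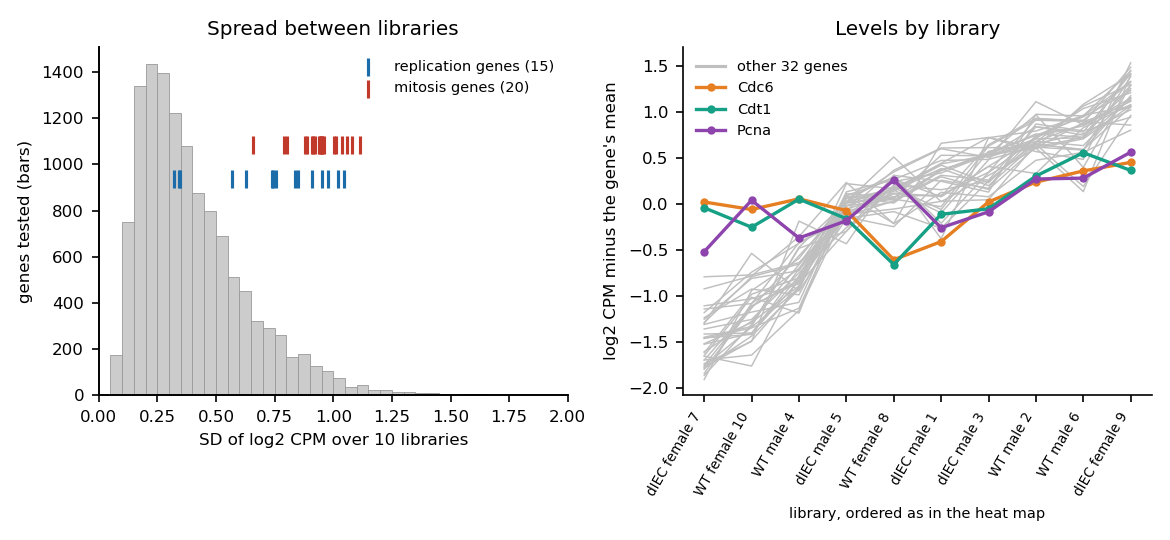
Left: histogram of the SD of log2 CPM over 10 libraries for the genes tested (grey bars; 10 genes above 2 not shown), with ticks for the 15 replication genes (blue) and the 20 mitosis genes (red). Right: log2 CPM minus each gene's mean by library, for Cdc6, Cdt1 and Pcna (coloured) and the other 32 genes (grey). The grey lines climb from dIEC female 7 to dIEC female 9. Pcna climbs less between the same libraries (2.12-fold), and Cdc6 and Cdt1 follow the order less closely.

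Cdc6 and Cdt1, the loading pair, were alike in this. Cdc6 (chromosome 11, 98907801 to 98923940) was at 12.7, 11.2 and 13.8 CPM in WT males 2, 4 and 6, 7.004 and 10.3 CPM in WT females 8 and 10, 8.06, 10.9 and 10.2 CPM in dIEC males 1, 3 and 5, and 10.9 and 14.8 CPM in dIEC females 7 and 9. Cdt1 (chromosome 8, 122568015 to 122573554) was at 29.1, 24.4 and 34.7 CPM in WT males 2, 4 and 6, 14.8 and 19.7 CPM in WT females 8 and 10, 21.8, 22.7 and 21.05 CPM in dIEC males 1, 3 and 5, and 22.9 and 30.4 CPM in dIEC females 7 and 9. In dIEC female 7, the lowest library for 32 of the 35 genes, both loaders were at mid range, and for both WT female 8 was the lowest. Relative to the mean log2 CPM of the other members, Cdt1 was at 1.81 in dIEC female 7 and at -0.37 in dIEC female 9. No listed gene overlaps an exon of either gene.

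Replication genes as a group varied less than mitosis genes, and the difference between them set apart the 3 libraries with the lowest levels. The mean log2 CPM of the 15 replication genes was 4.83, 3.73 and 4.95 in WT males 2, 4 and 6, 4.23 and 3.37 in WT females 8 and 10, 4.21, 4.42 and 4.12 in dIEC males 1, 3 and 5, and 3.05 and 5.23 in dIEC females 7 and 9. The mean of the 20 mitosis genes in the same order was 4.85, 3.25, 4.82, 4.25, 2.87, 4.43, 4.62, 4.10, 2.56 and 5.34. Replication minus mitosis was therefore highest in the 3 libraries with the lowest levels, at 0.50 in WT female 10, 0.49 in dIEC female 7 and 0.48 in WT male 4. In the other 7 libraries it lay between -0.22 (dIEC male 1) and 0.13 (WT male 6) and did not follow the order of their levels. By genotype the difference was 0.21 ± 0.26 in WT and -0.0029 ± 0.29 in dIEC (SD, n = 5 each), and the libraries overlapped. Without Cdc6, Cdt1 and Pcna it was 0.28 in WT male 4, 0.21 in WT female 10 and 0.15 in dIEC female 7, and -0.26 to 0.11 in the rest. The gap between genotypes was -0.21 with all 35 genes, less than either SD, and -0.20 without those 3. Without those 3 the difference was 0.10 ± 0.15 in WT and -0.10 ± 0.16 in dIEC (SD, n = 5 each). That gap exceeded either SD, while the libraries still overlapped. Leaving out single libraries in turn, the gap with all 35 genes was -0.34 to -0.14. It was not tested.

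**Figure D3:**
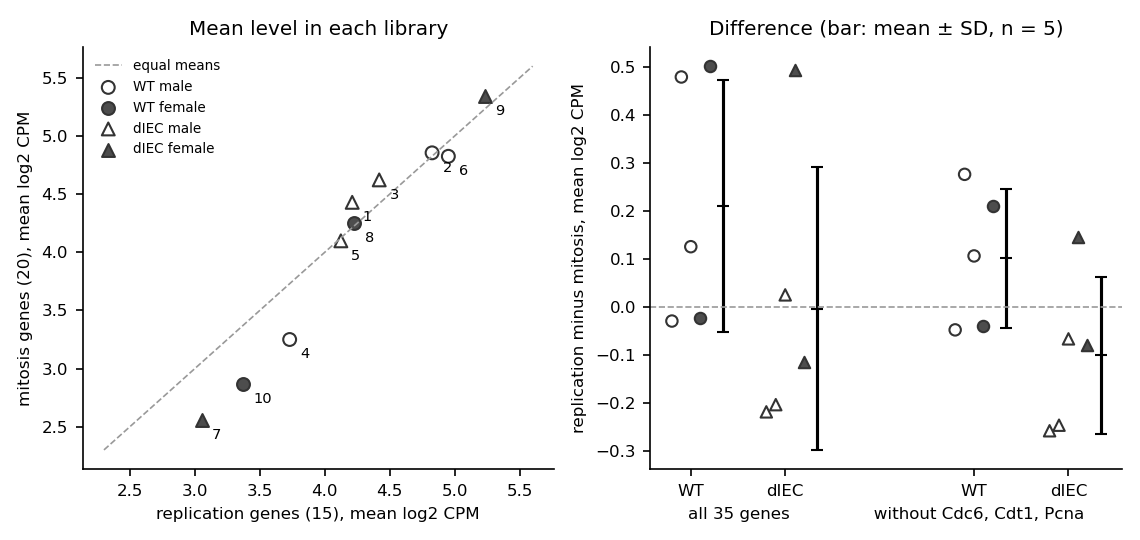
Left: mean log2 CPM of the 15 replication genes (x) and of the 20 mitosis genes (y) in each library, numbered as labelled (circles WT, triangles dIEC, filled females), with the line of equal means. Right: replication minus mitosis by genotype, with all 35 genes and without Cdc6, Cdt1 and Pcna, where bars are mean ± SD (n = 5). The 3 libraries with the lowest levels (dIEC 7, WT 10 and WT 4) lie farthest below the line of equal means. WT 6 and dIEC 5 lie just below it.

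The promoters were read because the genes moved together. Sequences were matched by symbol to RefSeq promoter windows on GRCm38.p6, from 250 bases before to 50 bases after each start, for 13 replication and 17 mitosis genes. Mcm4, Gins2, Ccna2, Aurkb and Tpx2 had no entry, and a gene with more than 1 window (Mcm7) counted if either window matched. Both strands were searched for 3 motifs known from cell cycle promoters. The E2F motif, bound by the E2F factors of S phase genes, was TTTGGCGC, TTTCCCGC, TTTCGCGC or TTTGCCGC. The CHR (cell cycle genes homology region), bound by the DREAM and B-MYB complexes, was TTTGAA or TTTAAA, and the latter is its own reverse complement. The box bound by the factor NF-Y was CCAAT. The searched letters of different motifs can overlap by a few bases, and matches are a description of letters, not of binding.

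The E2F letters were found in 6 of 13 replication promoters (Cdc6, Cdt1, Mcm3, Mcm5, Mcm6 and Mcm7), in 1 of 17 mitosis promoters (Cdk1) and in 2.26% of all 32851 windows. The CHR letters were found in 15 of 17 mitosis promoters, all but Bub1 and Nusap1, in 5 of 13 replication promoters and in 27.6% of all windows. Within 50 bases of the start, 13 of 17 mitosis promoters, 2 of 13 replication promoters and 8.68% of all windows held the CHR letters. CCAAT was in 9 of 13 replication promoters, 15 of 17 mitosis promoters and 37.4% of all windows. Of the 3 genes with the smallest spread, Cdc6 and Cdt1 held the E2F letters and neither of the other motifs, and Pcna held CCAAT alone. Rrm1 and Bub1, with larger SDs of log2 CPM (0.91 and 1.11), also held CCAAT alone. Tyms and Nusap1, with SDs of 0.85 and 1.04, held none of the motifs. Such motifs were known for many of these genes before, so the counts describe the lists and were not tested.

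**Figure D4:**
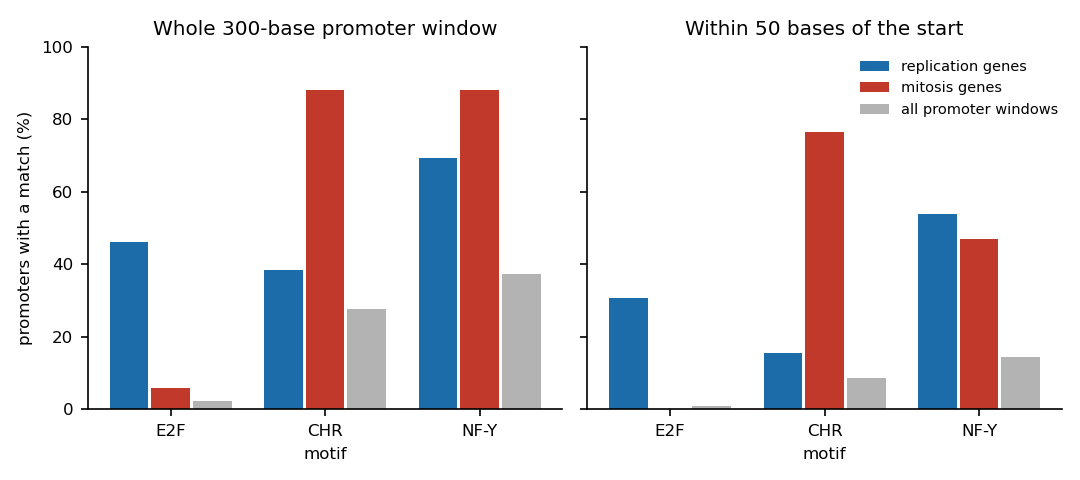
Share of promoters (y axis, %) with a match to each motif (x axis) among 13 replication genes (blue), 17 mitosis genes (red) and all 32851 windows (grey), in the whole window (left) and within 50 bases of the start (right). E2F matches are mostly in replication promoters (6 of 13) and CHR matches near the start mostly in mitosis promoters (13 of 17).

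The 250 bases before the start are printed for the 3 replication and the 3 mitosis genes with the largest spread among those with an entry, 5′ to 3′ on the gene's strand, with capitals for matches on either strand. The replication promoters are Mcm3 (chr1:20820313-20820562, minus strand), Mcm5 (chr8:75109259-75109508, plus strand) and Rrm2 (chr12:24708004-24708253, plus strand). Mcm5 holds 2 overlapping E2F matches, at positions -153 to -142 from the start, which read as 1 run of capitals. The E2F matches of Mcm3 begin at positions 20 and 39 and the CHR match of Rrm2 at position 1, downstream of the printed bases.

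Mcm3: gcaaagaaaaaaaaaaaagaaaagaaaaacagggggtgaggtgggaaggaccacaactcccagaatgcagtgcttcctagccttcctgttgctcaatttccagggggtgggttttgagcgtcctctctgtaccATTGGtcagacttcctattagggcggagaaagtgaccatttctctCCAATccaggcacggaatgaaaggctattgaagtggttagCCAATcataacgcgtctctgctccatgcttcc
Mcm5: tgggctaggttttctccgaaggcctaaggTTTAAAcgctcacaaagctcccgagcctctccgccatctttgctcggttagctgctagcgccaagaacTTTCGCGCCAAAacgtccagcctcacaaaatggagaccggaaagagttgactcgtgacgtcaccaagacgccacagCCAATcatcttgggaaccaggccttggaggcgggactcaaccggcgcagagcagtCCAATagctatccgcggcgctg
Rrm2: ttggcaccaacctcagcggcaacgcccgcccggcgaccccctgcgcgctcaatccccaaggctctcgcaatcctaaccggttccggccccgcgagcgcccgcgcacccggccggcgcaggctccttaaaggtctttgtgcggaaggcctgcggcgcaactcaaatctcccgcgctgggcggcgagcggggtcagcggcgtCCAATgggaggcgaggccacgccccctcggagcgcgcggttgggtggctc

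The mitosis promoters are Bub1 (chr2:127831860-127832109, minus strand), Cdk1 (chr10:69352913-69353162, minus strand) and Top2a (chr11:99024190-99024439, minus strand). Cdk1 holds CHR matches that begin at positions -71 and -15 from the start, beside an E2F match and 3 CCAAT boxes. Top2a holds CHR matches that begin at positions -179 and -23 and 6 CCAAT boxes, and Bub1 holds 2 CCAAT boxes alone.

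Bub1: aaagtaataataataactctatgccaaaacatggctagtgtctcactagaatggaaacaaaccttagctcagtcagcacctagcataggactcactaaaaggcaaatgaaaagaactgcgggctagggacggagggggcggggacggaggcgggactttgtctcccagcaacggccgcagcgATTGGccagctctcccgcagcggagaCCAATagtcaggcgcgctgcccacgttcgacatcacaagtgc
Cdk1: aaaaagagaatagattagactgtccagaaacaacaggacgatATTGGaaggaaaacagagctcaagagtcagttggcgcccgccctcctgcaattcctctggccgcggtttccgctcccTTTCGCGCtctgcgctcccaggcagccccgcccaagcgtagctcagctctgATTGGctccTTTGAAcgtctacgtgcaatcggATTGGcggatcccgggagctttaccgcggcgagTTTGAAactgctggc
Top2a: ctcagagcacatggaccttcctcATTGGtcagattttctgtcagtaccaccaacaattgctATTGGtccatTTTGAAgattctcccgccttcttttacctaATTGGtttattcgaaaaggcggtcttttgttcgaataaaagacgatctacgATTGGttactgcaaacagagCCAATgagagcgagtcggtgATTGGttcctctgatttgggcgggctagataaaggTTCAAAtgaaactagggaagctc

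The last 60 bases before the start show the motifs next to the start for the remaining genes whose window is outside the annotated gene and holds an E2F (replication) or CHR (mitosis) match there. They are Mcm6 (chr1:128359706-128359765, minus strand), Hmgb2 (chr8:57511783-57511842, plus strand), Plk1 (chr7:122159375-122159434, plus strand) and Kif11 (chr19:37376322-37376381, plus strand). In each of the 4 a CCAAT box lies in the same 60 bases, and the CHR begins at positions -30, -29 and -19 in Hmgb2, Plk1 and Kif11.

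Mcm6: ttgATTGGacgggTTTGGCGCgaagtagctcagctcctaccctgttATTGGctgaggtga
Hmgb2: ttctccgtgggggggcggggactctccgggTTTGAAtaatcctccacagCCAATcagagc
Plk1: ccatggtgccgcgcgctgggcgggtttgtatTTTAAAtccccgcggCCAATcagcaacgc
Kif11: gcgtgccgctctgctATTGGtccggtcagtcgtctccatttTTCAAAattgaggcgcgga

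The first comparison asked whether cell cycle genes differed between dIEC and WT epithelium. None of the 35 genes passed the threshold (edgeR quasi-likelihood test with Benjamini-Hochberg adjustment over 12477 genes, adjusted p under 0.05), where 0.016% of all genes did. None had an unadjusted p under 0.05, where 2.85% of all genes did. DESeq2 and limma voom called none of the 35 either, against 0.0321% and 0.016% of all genes. At an unadjusted p under 0.05 they had 0 and 7 of the 35, against 4.09% and 19.1% of all genes. No gene of the 35 had WT and dIEC libraries that did not overlap, against 0.313% of all genes. Of the replication genes 11 of 15 were higher in dIEC, with a median log2 fold change of 0.056, and of the mitosis genes 18 of 20, with a median of 0.29. Over all genes tested 52.6% were higher and the median was 0.013. These medians turned with the tool and with single libraries. With limma voom on all 10 libraries, weighted by sample quality, 33 of the 35 genes were lower in dIEC, among them the 7, with medians of -0.41 for replication and -0.27 for mitosis genes. Its sample weight was lowest for dIEC female 9 (0.159, against 0.322 to 3.85 in the others). In the edgeR fit without dIEC female 9 they were -0.44 for replication and -0.41 for mitosis genes. The replication median was also negative without WT female 10 (-0.14) and without WT male 4 (-0.033). In males alone the medians were -0.38 and -0.11, and in females alone 0.75 and 0.88.

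Standard errors of the log2 fold change ran from 0.21 for Pcna to 0.62 for Gins2 among replication genes, and differences of that size could not be told from the spread with 5 libraries a group. The mitosis genes with the smallest p were Ccnb1, Cenpf and Kif11. Ccnb1, the cyclin B that drives entry into mitosis, was at 8.15, 2.29 and 7.67 CPM in WT males 2, 4 and 6, 4.67 and 2.60 CPM in WT females 8 and 10, 8.68, 9.08 and 5.79 CPM in dIEC males 1, 3 and 5, and 1.61 and 16.1 CPM in dIEC females 7 and 9. Its mean was 5.07 ± 2.75 CPM in WT and 8.25 ± 5.30 CPM in dIEC (SD, n = 5 each), a log2 fold change of 0.74 (SE 0.55; edgeR adjusted p = 0.9999). Males 1 and 3 and female 9 of dIEC lay above every WT library and dIEC female 7 below every one, and without dIEC female 9 the log2 fold change was 0.0023. Cenpf, a kinetochore protein, was at 31.3, 10.9 and 22.5 CPM in WT males 2, 4 and 6, 22.9 and 8.25 CPM in WT females 8 and 10, 27.8, 33.9 and 23.9 CPM in dIEC males 1, 3 and 5, and 7.01 and 54.5 CPM in dIEC females 7 and 9. Its log2 fold change was 0.63 (SE 0.50), or -0.0030 without dIEC female 9, and that of Kif11 was 0.44 (SE 0.52), or -0.25 without it.

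Among replication genes the smallest p were those of Pcna, Mcm2 and Mcm6. Pcna had a mean of 63.2 ± 11.1 CPM in WT and 56.3 ± 17.5 CPM in dIEC (SD, n = 5 each), with a log2 fold change of -0.17 (SE 0.21). Mcm2, a ring subunit, was at 47.9, 26.8 and 50.9 CPM in WT males 2, 4 and 6, 29.6 and 19.9 CPM in WT females 8 and 10, 37.6, 36.3 and 40.5 CPM in dIEC males 1, 3 and 5, and 18.05 and 60.1 CPM in dIEC females 7 and 9, with a log2 fold change of 0.18 (SE 0.32). Mcm6 had a mean of 60.2 ± 26.2 CPM in WT and 67.7 ± 38.9 CPM in dIEC (SD, n = 5 each) and a log2 fold change of 0.19 (SE 0.43). For Mcm2 and Mcm6 the sign turned without dIEC female 9 (-0.23 and -0.40), and for each of these 3 genes the genotypes overlapped.

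Because the libraries differed so much in overall cell cycle level, the fit was repeated with that level as a covariate. The covariate, chosen after the data were seen, was the mean log2 CPM of 130 other tested cell cycle genes, none of them among the 35. None of the 35 genes passed, where 0.024% of all genes did, and 5 had an unadjusted p under 0.05, a share of the 35 near the 15.2% of all genes that did. The 5 were Cenpf (0.41, SE 0.13), Ccnb1 (0.47, SE 0.16) and Kif11 (0.22, SE 0.09), higher in dIEC, and Mcm3 (-0.32, SE 0.11) and Pcna (-0.24, SE 0.08), lower, as log2 fold changes with SE. The lowest edgeR adjusted p of the 35 was 0.196, for Cenpf. A covariate made of cell cycle genes centres these fold changes near 0, so that members fall on both sides of it (17 higher and 18 lower in dIEC, median -0.0017, against 0.00065 over all genes tested). In that fit 13 of 15 replication genes were lower and 15 of 20 mitosis genes higher in dIEC, with medians of -0.076 and 0.044. This split was not tested, and genes that move together are not separate observations. Relative to the mean log2 CPM of the other members, Cenpf was at 0.14, 0.02, -0.39, 0.30 and -0.01 in WT libraries 2, 4, 6, 8 and 10 and at 0.49, 0.57, 0.49, 0.08 and 0.49 in dIEC libraries 1, 3, 5, 7 and 9. In 4 of 5 dIEC libraries it exceeded every WT library on that scale, and dIEC female 7 lay among the WT libraries. Ccnb1 on the same scale was at -1.84, -2.22, -1.96, -2.02 and -1.66 in WT and at -1.22, -1.36, -1.58, -1.99 and -1.31 in dIEC in the same order, again with dIEC female 7 alone among the WT values. Cenpf and Ccnb1 were shown because they had the smallest p of the 35 in this fit. Their order by genotype thus follows from that choice and adds no support.

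**Figure D5:**
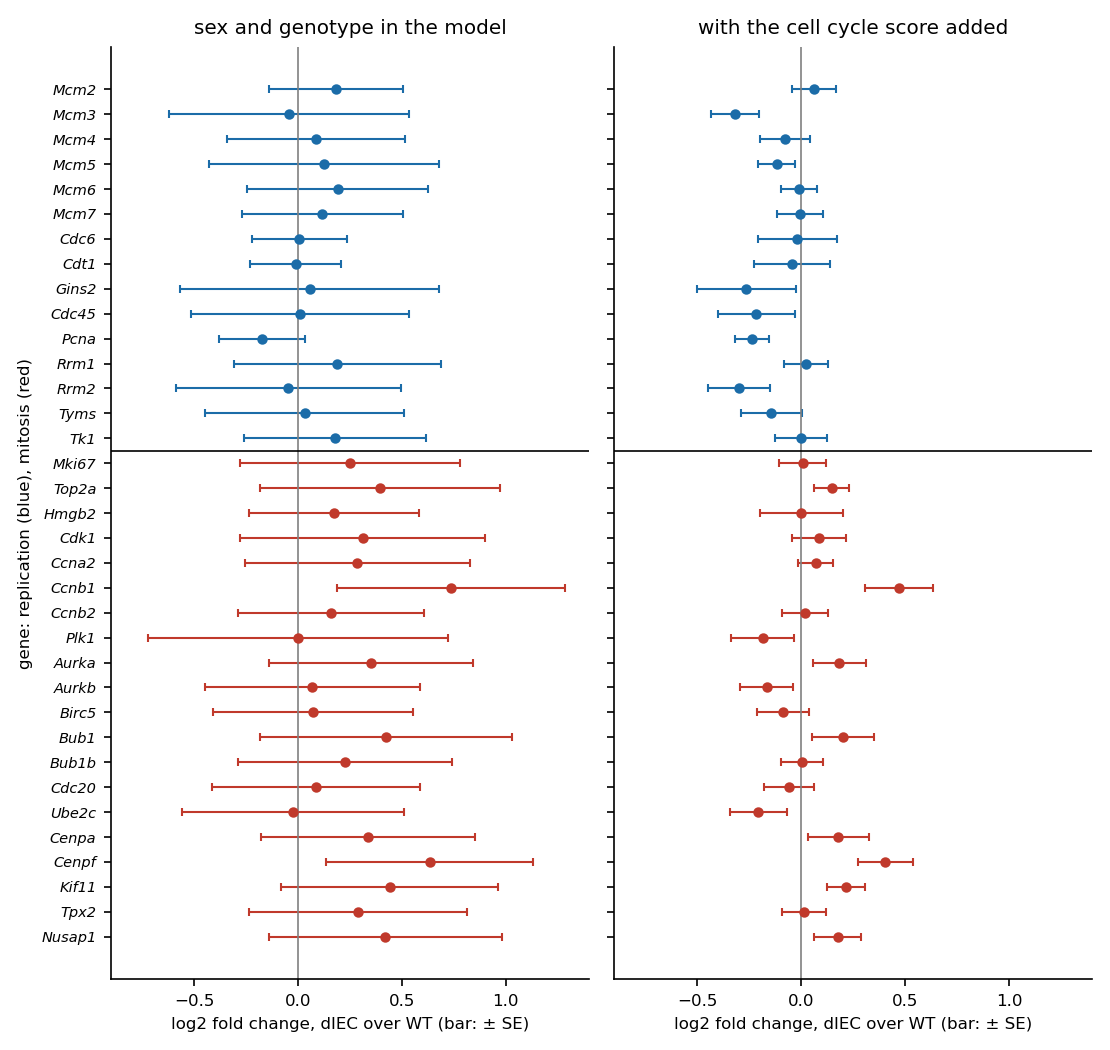
Log2 fold change of dIEC over WT (x axis, bars ± SE) for each replication gene (blue) and mitosis gene (red), with sex and genotype in the model (left) and with the mean of 130 other cell cycle genes added (right). No gene passed in either fit. On the right 13 of 15 replication genes lie below 0 and 15 of 20 mitosis genes above it. The covariate itself centres these genes near 0, and the split was not tested.

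The second comparison asked whether females and males differed. None of the 35 genes passed, against 0.0401% of all genes, none had an unadjusted p under 0.05, against 4.44% of all genes, and none had female and male libraries that did not overlap, against 0.946%. DESeq2 and limma voom called none of the 35 either, against 0.104% and 0.0481% of all genes. With limma voom, however, all 35 were lower in females and 33 had an unadjusted p under 0.05, against 19% of all genes. Its medians were -1.49 for mitosis and -1.10 for replication genes, and its lowest adjusted p was 0.188. Of the females, its sample weights were lowest for dIEC 9 (0.159) and WT 8 (0.322), the 2 with the higher cell cycle levels. Those of dIEC 7 and WT 10 were 0.789 and 1.13. The part of these weights in the sex difference was not tested. DESeq2 had none at an unadjusted p under 0.05, against 5.25% of all genes. In the edgeR fit all 20 mitosis genes and 14 of 15 replication genes were lower in females, with medians of -0.29 and -0.17 on the log2 scale, against 0.040 over all genes tested, of which 58.4% were higher. The exception was Pcna, at 0.18 (SE 0.21). The smallest p were those of Mcm4 (-0.46, SE 0.44), Mcm2 (-0.34, SE 0.33) and Cdt1 (-0.22, SE 0.22). Mcm4, a ring subunit, was at 37.7, 15.3 and 35.8 CPM in WT males 2, 4 and 6, 17.3 and 9.59 CPM in WT females 8 and 10, 24.6, 23.1 and 18.6 CPM in dIEC males 1, 3 and 5, and 9.19 and 39.6 CPM in dIEC females 7 and 9. WT females 8 and 10 lay below WT males 2 and 6, while dIEC females 7 and 9 were the lowest and the highest library of all. Without WT female 10 the medians were 0.0092 for mitosis and 0.097 for replication genes, and without dIEC female 7 they were -0.011 and 0.085. Without dIEC female 9 they were -1.14 and -0.90. Within WT alone the medians were -0.77 and -0.76, and within dIEC alone 0.16 and 0.29. With the covariate none of the 35 passed, against 1.1% of all genes, and 5 had an unadjusted p under 0.05, against 22.5%. Pcna had the smallest of these, with a log2 difference of 0.32 (SE 0.09; edgeR adjusted p = 0.0779), and Ccna2, Top2a, Aurkb and Mcm4 were lower.

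The last comparison took up whether dIEC and WT differed by another amount in females than in males. None of the 35 genes passed, against 0.00801% of all genes, and 2 had an unadjusted p under 0.05, against 2.1% of all genes. All 35 interactions were positive, against 54.8% of all genes, with medians of 1.06 for replication and 0.94 for mitosis genes, and each rests on 2 females per genotype. That direction rested on dIEC female 9: without it 2 of the 35, Cdc6 and Cdt1, were positive, and the medians were -0.80 and -1.13. Without WT female 10 the medians were 0.78 and 0.38, without WT female 8 1.74 and 1.90, and without dIEC female 7 1.75 and 1.76. The 2 genes under 0.05 were the loaders Cdt1, with an interaction of 1.06 (SE 0.31), and Cdc6, with 0.94 (SE 0.38). Both had an edgeR adjusted p = 0.999997. DESeq2 had 2 of the 35 at an unadjusted p under 0.05, against 2.65% of all genes, limma voom had 1, against 0.793%, and neither called any, against 0.144% and 0% of all genes. In Cdt1 both WT females (14.8 and 19.7 CPM) lay below all 8 other libraries (21.0 to 34.7 CPM), and without single libraries its interaction stayed between 0.84 and 1.27. In Cdc6 WT female 8 was lowest, and its interaction was 0.70 to 1.25. Mcm4, next by p, had 1.30 (SE 0.81), which was -0.12 without dIEC female 9 and 1.98 without dIEC female 7. Red cell transcripts also set the WT females apart: the haemoglobin gene Hbb-bs had 0 and 2 counts in WT females 8 and 10 and 76 to 267 counts in the other 8 libraries. Its part in these interactions was not tested.

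Other genes of the cycle, from lists chosen by function, followed the same order of libraries. In dIEC, 42 of 56 other replication genes were higher (median log2 fold change 0.11) and 63 of 74 other mitosis genes (median 0.21). Over all genes tested 52.6% were higher, with a median of 0.013. No gene of either list was called in any of the 3 comparisons, against 0.016%, 0.0401% and 0.00801% of all genes. These values come from all 10 libraries. The fit without dIEC female 9, which turned the medians of the 35 genes, was not read for these lists or those below. Exo1, a nuclease of DNA repair, ran from 1.08 CPM in WT male 4 to 12.5 CPM in dIEC female 9. Asf1b, a histone chaperone, ran from 1.38 to 13.1 CPM. Of the mitosis list, Ckap2l, a spindle protein, ran from 1.15 to 14.8 CPM and Spc24, a kinetochore protein, from 0.575 to 15.3 CPM. Not every gene followed. The phosphatase gene Cdc25a lay between 73.7 and 94.5 CPM, and its correlation with the mean of the 35 genes over the 10 libraries was -0.704. Ncapg, a condensin subunit, had the smallest p of the mitosis list, with 0.59 (SE 0.35).

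Of the genes that lead cells out of G1, 11 were tested and 7 were higher in dIEC (median 0.026), against 52.6% of all genes. None was called, against 0.016% of all genes. Cyclin D1, Ccnd1, was at 87.3, 26.1 and 103 CPM in WT males 2, 4 and 6, 55.4 and 19.01 CPM in WT females 8 and 10, 48.9, 62.8 and 48.1 CPM in dIEC males 1, 3 and 5, and 26.1 and 114 CPM in dIEC females 7 and 9. Myc ran from 3.10 to 18.5 CPM, and for both the 3 lowest libraries were dIEC female 7, WT male 4 and WT female 10. Ccnd3 stayed between 12.2 and 22.0 CPM. The list of CDK inhibitors had 6 tested genes, 4 of them higher in dIEC (median 0.11), none called, beside the same shares of all genes. Cdkn1a, the p21 inhibitor that brakes the cycle, ran the other way and was at 102, 185 and 127 CPM in WT males 2, 4 and 6, 108 and 162 CPM in WT females 8 and 10, 115, 143 and 167 CPM in dIEC males 1, 3 and 5, and 213 and 91.8 CPM in dIEC females 7 and 9. It was highest in dIEC female 7 and lowest in dIEC female 9 (correlation with the mean of the 35 genes -0.860, 10 libraries), and was chosen after its values were seen. Other inhibitors did not all run that way. Cdkn1b stayed between 42.5 and 65.6 CPM and Cdkn2c ran from 4.94 to 13.6 CPM, with correlations of 0.767 and 0.927. Those of Cdkn1c and Cdkn2d were -0.498 and 0.056.

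Regulators of cell cycle transcription, 22 genes of the E2F, MYB and DREAM families, included 12 that were higher in dIEC (median 0.048). That share was near the 52.6% of all genes, and none was called, against 0.016%. E2f8, an S phase repressor, ran from 2.18 to 14.5 CPM and Myb from 9.65 to 74.0 CPM, with correlations to the mean of the 35 of 0.980 and 0.981. Rbl2, the p130 pocket protein of resting cells, ran from 44.0 CPM in dIEC female 9 to 76.4 CPM in dIEC female 7, the opposite order. Of 50 tested histone genes 43 were higher in dIEC (median 0.19), against 52.6% of all genes, and none was called, against 0.016%. Linker histone Hist1h1b ran from 11.3 CPM in dIEC female 7 to 123 CPM in dIEC female 9 and was chosen after its values were seen. Among the histone genes with the highest levels, Hist1h1c ran from 101 CPM in WT female 10 to 237 CPM in WT male 6. Hist1h1e ran from 71.2 to 238 CPM between the same libraries. Their correlations with the mean of the 35 genes were 0.477 and 0.772. Near-identical copies make single histone values uncertain, and H1f0 (154 to 236 CPM), which the symbols also brought in, is not a replication-dependent gene.

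Markers of crypt stem cells moved with the 35 genes, and those of mature enterocytes moved against them. The mean log2 CPM of 12 mature enterocyte markers, the absorptive cells of the villus, was highest in dIEC female 7 (11.16) and lowest in dIEC female 9 (9.74). That of 12 crypt stem cell markers ran the same way as the 35 genes, at 3.32 in dIEC female 7 and 5.62 in dIEC female 9. By genotype the enterocyte mean was 10.57 ± 0.46 in WT and 10.57 ± 0.53 in dIEC, and the crypt mean 4.58 ± 0.72 and 4.68 ± 0.84 (SD, n = 5 each). Their part in the spread of the 35 genes was not tested.

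The genes most like the 35 were ranked by the correlation of log2 CPM with the mean of the 35 over 10 libraries, among 9782 other genes with a mean of at least 5 CPM, and 6.93% of these exceeded 0.9. The closest were Hist1h4f, Apex1, Trim37, Atad2, Uhrf1, Cdca3, Sun2, Polr1b, Spag5 and a gene without a symbol, each at 0.992 or more. Atad2, a chromatin ATPase, ran from 8.39 CPM in dIEC female 7 to 61.9 CPM in dIEC female 9. Uhrf1, which helps copy DNA methylation at the fork, ran from 7.47 to 54.7 CPM in the same libraries. The most opposite were Ap3b1, Snx9, Xpr1, Ush1c and Acbd4, at -0.978 to -0.985, and Acbd4 ran from 131 CPM in dIEC female 9 to 318 CPM in dIEC female 7. Of the 35 genes, 7 overlap a listed gene on the opposite strand (Nusap1 with Oip5, Ccna2 with Exosc9, Cdc20 with Elovl1, Mcm7 with Cops6 and Ap4m1, Gins2 with Gse1, Tk1 with Afmid and Cdc45 with Ufd1). It is not stated whether the counting used strand, and the values of these 7 are uncertain by the share of their neighbour's reads.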

How the data were processed

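Total RNA of 10 libraries of sorted ileal epithelial cells was sequenced after removal of ribosomal RNA with a stranded kit, per the labels. The authors deposited 1 table of raw counts per gene. The submitters' processing notes name the aligner Novoalign and the build mm10. How reads were assigned to genes, with which annotation and with or without strand, is not given in the sources used here. Each of the 13932 listed genes reached at least 10 counts in some library, and totals of 9174101 to 13484363 counts set the precision.

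edgeR 4.0.16 in R 4.3.3 gave the tests, and limma 3.58.1 and DESeq2 1.42.0 were alternatives. Of the listed genes 12477 (89.6%) passed filterByExpr, and totals were scaled by TMM. edgeR's robust quasi-likelihood test on sex plus genotype, or with their product, was adjusted by Benjamini-Hochberg over all genes, and genes under 0.05 were called. The standard error was taken as |log2 fold change| divided by the root of the F statistic. log2 CPM used a prior count of 2. Coordinates and exon lengths come from GENCODE on GRCm38 (13729 identifiers matched).

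The 35 genes, the lists, the motifs and the tests were chosen with earlier results of these data known. Values in every library were given by rule for the highest and the most variable gene of each functional group and for the 3 genes with the smallest p per comparison and group. From every other list the rule takes up to 3 genes by p and 2 by spread, or of histone genes the 3 highest. The text gives part of these. Cdkn1a and Hist1h1b were added after their values were seen. The covariate of 130 genes and the sets without Cdc6, Cdt1 and Pcna were added after the data were seen. Other alternatives were size factors, library size only, limma voom with sample weights, filters, prior count, threshold, covariates, fits to 1 sex or 1 genotype, and fits without each library in turn.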

Additional observations from a re-analysis of the deposited data

Results flagged for a closer look

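Among 76 groups of 5 libraries examined for a single library far from the others (each of the 35 genes and several means, by genotype), 1 stood apart, where chance gives about 3.8. It was Cdt1 in dIEC, whose log2 CPM was 4.93 in dIEC female 9 and 4.41 to 4.53 in the other 4 dIEC libraries.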

How the results depend on the processing

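Over 25 results and 454 alternative values, 420 kept their direction and call, or stayed within 1.5 times or the spread between libraries. For medians this rule allowed a turn of sign. The genotype median ran from -0.44 to 0.75 for replication and from -0.41 to 0.88 for mitosis genes. These values counted as kept, within allowed spreads of 0.73 and 0.97. None of the 35 genes was called in any alternative. The number of genes called for dIEC against WT was 4 with DESeq2 and 0 in females alone, against 2. For the sexes it was 13 with DESeq2 and 137 with the covariate, against 5. For the interaction it was 18 with DESeq2, 0 with library size only or limma voom, and 0 to 1 without single libraries, against 1. With limma voom the median sex difference was -1.10 for replication and -1.49 for mitosis genes. The genotype log2 fold change of Mcm2 and Mcm6 turned to -0.14 and -0.17 without both dIEC females, -0.28 and -0.36 with limma voom and -0.15 and -0.19 in males alone, and that of Kif11 to -0.092 with limma voom and of Mcm6 to -0.011 with the covariate. Without single libraries the genotype values were -0.23 to 0.32 for Mcm2, -0.40 to 0.38 for Mcm6, -0.0030 to 0.87 for Cenpf and -0.25 to 0.65 for Kif11, and the interaction of Mcm4 was -0.12 to 1.98. Within dIEC alone the sex differences of Mcm2, Mcm4 and Cdt1 were 0.028, 0.14 and 0.26. The cause of these shifts was not tested, beyond the smaller number of libraries where some were left out. Counts under 10 in 1 of the 35 genes (Gins2) limit its precision.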
